A study of Rattus norvegicus with 26 samples.

Results

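The D-type cyclins Ccnd1, Ccnd2 and Ccnd3 and the CDK inhibitors Cdkn1a and Cdkn1b were followed in rats on a feed restriction that grew stricter by the day. The members were taken by name: every probe set annotated to 1 of these symbols and to no other gene was used, which gave 9 probe sets for 5 genes, out of 31042 probe sets and 14217 genes measured. Ccnd1 had 3 probe sets, Cdkn1a and Cdkn1b had 2 each, and Ccnd2 and Ccnd3 had 1 each. Where a gene had several, the probe set with the highest mean over all arrays leads, and the rest are given beside it.

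D-type cyclins are the regulatory subunits that switch on the kinases Cdk4 and Cdk6 in the G1 phase of the cell cycle. The active kinases phosphorylate the retinoblastoma protein and its relatives, which frees E2F factors to transcribe genes of DNA replication. The products of Cdkn1a (p21) and Cdkn1b (p27) bind cyclin-CDK complexes and restrain Cdk2, and they also take part in the assembly of cyclin D complexes. In liver, where most hepatocytes are quiescent, Ccnd1 is known for its induction when hepatocytes re-enter the cycle after partial hepatectomy.

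The 26 Affymetrix arrays were each hybridized with RNA of 1 animal, an inbred male Long-Evans (Turku/AB) rat of 11 to 15 weeks. Inguinal white adipose tissue came from 4 restricted and 4 control rats at day 4, liver came from 4 restricted and 4 control rats at day 4, and liver at day 10 came from 5 restricted and 5 control rats. Corn oil (4 mL/kg, day 0) went to all animals, controls included, so no group was free of this vehicle. The short regimen provided 18, 12, 9 and 6 g of feed on days 0, 1, 2 and 3. In the long regimen restricted rats had portions of powdered feed of 16 g on day 1, 14 g on day 2, 11 g on day 3, 8 g on day 4, 6 g on day 5, 4 g on days 6 and 7, 2 g on day 8 and 1 g on day 9. Control rats had no restriction. The series description counts 1 array per animal, and no label gives an animal's identity. The labels thus do not say whether the adipose tissue and livers of day 4 came from the same rats.

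Values are log2 expression values, and differences are restricted minus control on that scale, with a standard error (SE) and a 95% confidence interval. A gene is called where its adjusted p in limma was below 0.05, with adjustment over all 31042 probe sets. Array medians ran from 4.01 to 4.11 in adipose tissue, from 3.16 to 3.25 in day 4 livers and from 3.23 to 3.32 in day 10 livers, and a value near or below its array's median is close to background. Levels are compared within a tissue and day only, because the submitters pre-processed the 3 sets apart and because probe sets of different genes are not on a common scale. Tissue identity held: the mean of 7 hepatocyte markers lay between 14.7 and 15.0 on every liver array, and the mean of 7 adipocyte markers between 13.2 and 13.8 on every adipose array. Adipose control array 1 had a hepatocyte marker mean of 6.06, against 4.12 to 4.33 on the restricted and 4.62 to 4.72 on the other control arrays. The restricted and control adipose arrays were scanned in separate runs of 1 day, so run and group cannot be told apart there. The day 10 liver arrays fell on 2 scan days, both with restricted and control arrays (2 and 3 on scan day 1, 3 and 2 on scan day 2), and the scan records of the day 4 livers were not used here.

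In day 4 livers 2 of the 5 members were called: Ccnd1 fell 4.66-fold in restricted rats and Cdkn1b rose 1.41-fold, while Ccnd2, Ccnd3 and Cdkn1a did not pass the test. In bulk tissue, fewer cells of a type and less RNA per cell cannot be told apart. Of all genes 8.5% were called in that comparison, 4.53% higher and 3.97% lower. The groups did not overlap for Ccnd1 and Cdkn1b, nor for 15.9% of all genes. At day 10 in liver Cdkn1b was the only one of the 5 members called, 1.42-fold higher, where 16.8% of genes were called (8.67% higher and 8.15% lower). At an unadjusted limma p below 0.05 there were 2 of the 5 in day 4 livers and 4 in day 10 livers. By exact permutation test there were 2 and 3. The day 10 counts include Ccnd2, which was near background, and the shares of all genes at these p are not given here. In adipose tissue 0 of the 5 were called by limma, 0 at an unadjusted p below 0.05 and 0 by exact permutation test, where 0.106% of genes were called. The groups overlapped there for all 5 members, and did not for 8.15% of genes. The 5 members had a median difference of -0.11 in adipose tissue, -0.05 in day 4 livers and -0.26 in day 10 livers, and all genes one of 0.01, 0.01 and 0.00. The median in day 4 livers was the value of Cdkn1a, which lay below the array median there and measures no size of change.

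**Figure D1:**
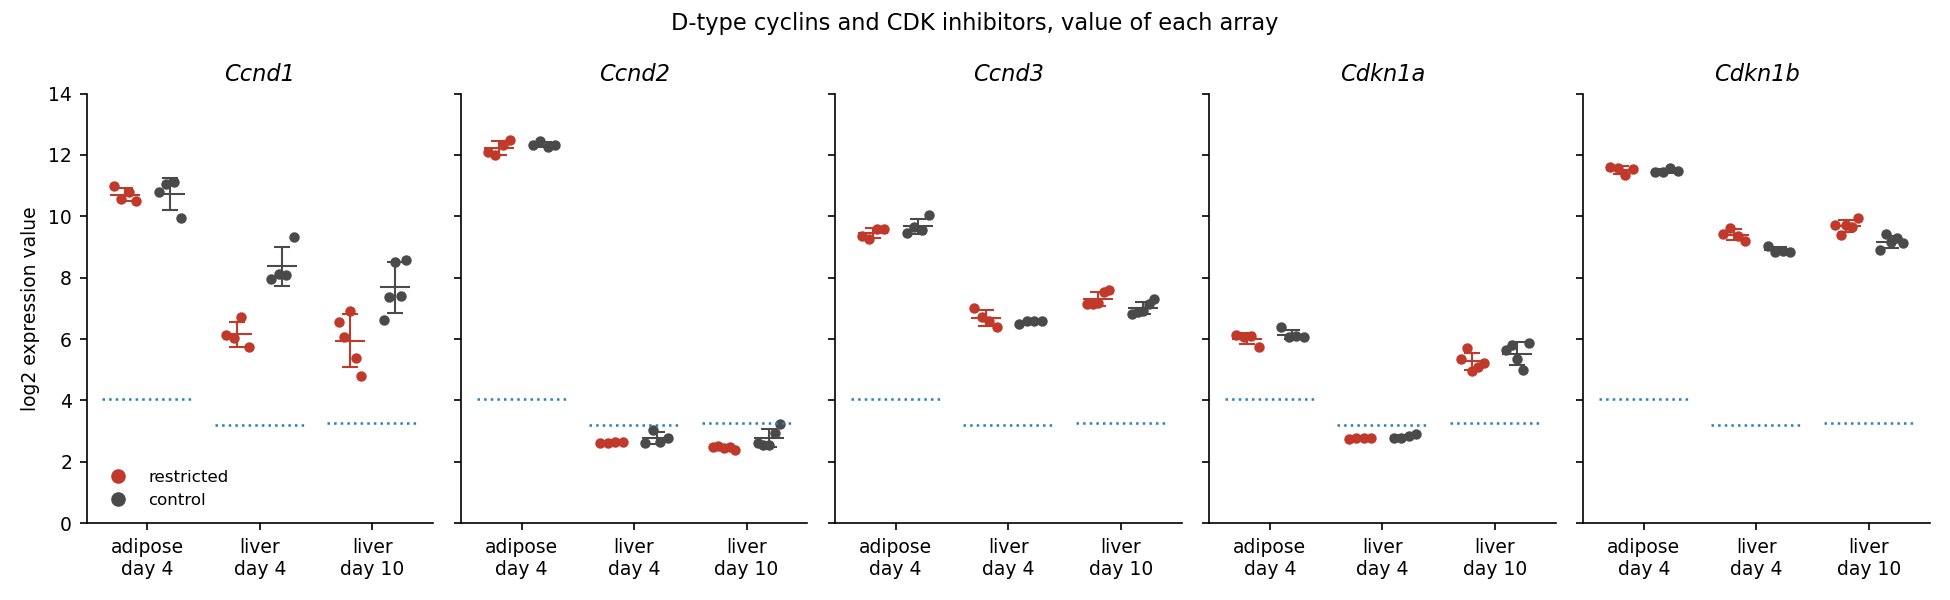
Log2 expression values of each array for the leading probe set of the 5 genes, restricted (red) left of control (grey), in adipose tissue and in liver at days 4 and 10. Bars give mean and SD, and the dotted line is the mean of the array medians. Ccnd1 separates by group in liver at day 4, with restricted arrays from 5.73 to 6.73 and control arrays from 7.97 to 9.33, and Ccnd2 in liver lies at or under the dotted line.

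Ccnd1 encodes cyclin D1, the D-type cyclin that mitogens are known to induce in hepatocytes. At day 4 its liver probe set values on 1383075_at were 6.13, 6.02, 6.73 and 5.73 in restricted rats, against 7.97, 8.11, 8.08 and 9.33 in control rats. Every restricted liver lay below every control liver, and 1 control liver stood well above the other three. The means were 6.15 ± 0.42 in restricted and 8.37 ± 0.64 in control rats (SD, n = 4 each), a difference of -2.22 (SE 0.35, interval -3.03 to -1.41, limma adjusted p = 0.0122). The exact permutation test gave p = 0.0286, the smallest that 4 against 4 arrays allow. Without control array 4, the highest, the difference was -1.90 (limma adjusted p = 0.00983), and it stayed between -2.41 and -1.90 whichever array was left out.

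The other Ccnd1 probe sets were also lower in restricted livers at day 4. Probe set 1371643_at averaged 7.29 ± 0.16 in restricted and 8.94 ± 0.61 in control rats (SD, n = 4 each), a difference of -1.65 (SE 0.29, limma adjusted p = 0.0187). Probe set 1371150_at read 5.01 to 5.14 in restricted and 5.42 to 7.59 in control rats, a difference of -1.03 that was not called (SE 0.46, limma adjusted p = 0.358), although its groups did not overlap. Control array 4 was the highest of the set on each of the 3 probe sets. Within groups the 3 probe sets moved together from array to array. The correlation of their deviations from the group means lay between 0.69 and 0.85 in the liver sets. In adipose tissue it lay between 0.92 and 0.95. These values are a description over 8 or 10 arrays that the probe sets share.

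**Figure D2:**
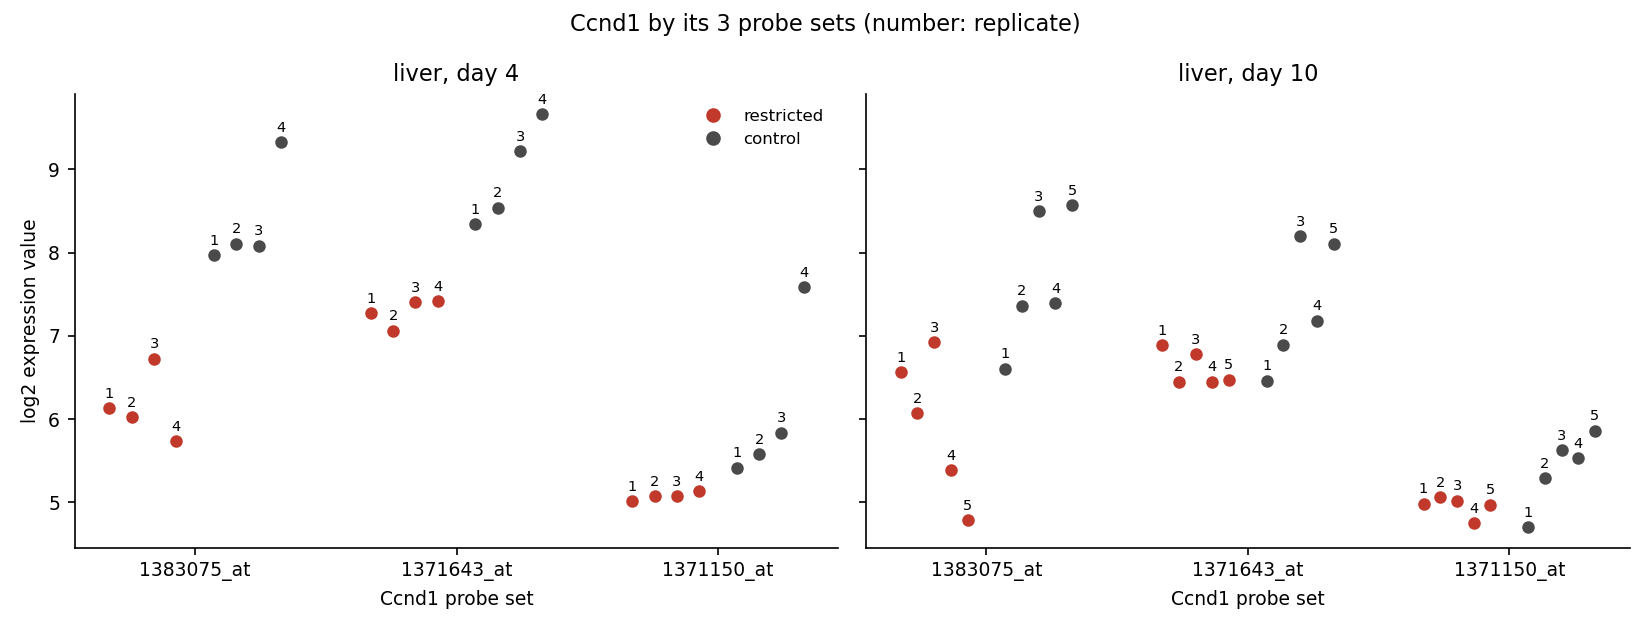
Log2 values of the 3 Ccnd1 probe sets in each liver at day 4 (left) and day 10 (right), restricted (red) left of control (grey), each point marked with its replicate number. At day 4 the restricted arrays lie below all control arrays on every probe set, from 5.73 to 6.73 against 7.97 to 9.33 on 1383075_at. At day 10 the groups overlap on every probe set, since control array 1 (6.61 on 1383075_at) lies among or below the restricted arrays.

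Ccnd1 on 1383075_at read 6.56, 6.07, 6.92, 5.39 and 4.78 in restricted rats at day 10 in liver, against 6.61, 7.36, 8.50, 7.39 and 8.57 in control rats. Restricted livers were mostly lower, with control array 1 below restricted array 3. The means were 5.94 ± 0.87 in restricted and 7.69 ± 0.84 in control rats (SD, n = 5 each), a difference of -1.74 (SE 0.51, interval -2.89 to -0.60) that just missed the threshold (limma adjusted p = 0.0615). The exact permutation test, which is not adjusted over genes, gave p = 0.0159. The gene passed the threshold without control array 1 (-2.01, limma adjusted p = 0.0391) and without restricted array 3 (-1.99, limma adjusted p = 0.0492). It did not pass without any other single array. Over all arrays left out in turn the difference ran from -2.01 to -1.45, with limma adjusted p from 0.0391 to 0.140. With dim probe sets left out (set mean under 5) the adjusted p of Ccnd1 was 0.0158.

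The 2 scan days of liver at day 10 each gave a lower Ccnd1 value in restricted rats. On scan day 1 the restricted livers read 6.56 and 6.07 and the control livers 6.61, 7.36 and 8.50, a difference of -1.17. On scan day 2 the restricted livers read 6.92, 5.39 and 4.78 and the control livers 7.39 and 8.57, a difference of -2.28. On this leading probe set the groups did not overlap within either day, and neither day alone was called (limma adjusted p = 0.683 and 0.275). With 2 against 3 arrays a day, groups can separate by chance, and the share of all genes that did so was not counted. On scan day 1 control array 1 lay below restricted array 1 on 1371643_at (6.46 against 6.89) and on 1371150_at (4.70 against 4.98). The groups thus overlapped there, and on scan day 2 they did not. With scan day as a block the difference on the leading probe set was -1.73 (limma adjusted p = 0.101). The other Ccnd1 probe sets differed by -0.76 (1371643_at, limma adjusted p = 0.239) and -0.45 (1371150_at, limma adjusted p = 0.236) at day 10.

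In adipose tissue Ccnd1 read 10.99, 10.55, 10.78 and 10.50 on 1383075_at in restricted rats, against 10.79, 11.04, 11.13 and 9.96 in control rats. The restricted arrays lay inside the range of the control arrays, of which array 4 was the lowest. The difference was -0.02 (SE 0.27, interval -0.65 to 0.61, limma adjusted p = 0.964), so the interval excludes a change of the size seen in liver at day 4. The adipose and liver differences at day 4 differed by 2.20, adipose minus liver (SE 0.46, interval 1.22 to 3.19, limma adjusted p = 0.0179), a contrast in which 5.11% of genes were called. This was also called on 1371643_at (1.45, limma adjusted p = 0.0474) and not on 1371150_at (1.04, limma adjusted p = 0.530). The call on 1383075_at held without each array in turn, with adjusted p from 0.0141 to 0.0403. Of the 5 members 1 was called in this contrast, and 2 had an unadjusted limma p below 0.05.

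Ccnd2 encodes cyclin D2 and was read by the single probe set 1370810_at. In adipose tissue it averaged 12.22 ± 0.22 in restricted and 12.33 ± 0.08 in control rats (SD, n = 4 each), a difference of -0.11 (SE 0.11, limma adjusted p = 0.706). Every day 4 liver array had it below the array median, with means of 2.62 ± 0.02 in restricted and 2.77 ± 0.19 in control rats (SD, n = 4 each). The transcript was thus close to background there, and no size of change is given for it.

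Ccnd2 at day 10 in liver read 2.47, 2.52, 2.44, 2.48 and 2.39 in restricted rats, against 2.61, 2.55, 2.56, 2.94 and 3.24 in control rats. The groups did not overlap, as for 16.7% of genes in that comparison, and the gap between the highest restricted and the lowest control array was narrow. Limma did not call the gene (adjusted p = 0.190), and the exact permutation p was 0.00794, the smallest that 5 against 5 arrays allow. Only control array 5 reached its array median, so here too no size of change is given. The highest values, control arrays 4 and 5, were both scanned on scan day 2.

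Ccnd3, which encodes cyclin D3, was read by 1369935_at and was not called in any of the 3 comparisons. Its day 10 liver values were 7.14, 7.14, 7.16, 7.52 and 7.60 in restricted rats, against 6.81, 6.88, 6.91, 7.15 and 7.30 in control rats. The restricted values leaned higher and the groups overlapped, with a difference of 0.30 (SE 0.13, interval 0.01 to 0.59, limma adjusted p = 0.222). Each scan day gave a difference of the same sign, 0.28 on day 1 and 0.20 on day 2. At day 4 in liver the difference was 0.12 (interval -0.16 to 0.39, limma adjusted p = 0.926), and in adipose tissue it was -0.22 (interval -0.54 to 0.10, limma adjusted p = 0.706).

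Cdkn1a encodes p21, the CDK inhibitor that p53 induces. Its probe set 1388674_at was below the array median on every liver array of day 4, with 2.76 to 2.79 in restricted and 2.77 to 2.90 in control rats. At day 10 in liver, a set pre-processed apart, it read 5.34, 5.72, 4.96, 5.09 and 5.23 in restricted rats, against 5.64, 5.81, 5.35, 4.98 and 5.86 in control rats. These groups overlapped over most of their range, with a difference of -0.26 (SE 0.20, interval -0.70 to 0.19, limma adjusted p = 0.678). In adipose tissue it averaged 6.01 ± 0.17 in restricted and 6.15 ± 0.16 in control rats (SD, n = 4 each), a difference of -0.13 (interval -0.39 to 0.13, limma adjusted p = 0.706). The second probe set, 1387391_at, was below the array median on all 26 arrays.

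Cdkn1b encodes p27, an inhibitor of cyclin E-Cdk2 that is known to be under the control of FOXO factors. Its probe set 1373812_at read 9.42, 9.63, 9.35 and 9.19 in restricted livers at day 4, against 9.04, 8.84, 8.87 and 8.85 in control livers. Every restricted liver lay above every control liver. The means were 9.40 ± 0.18 in restricted and 8.90 ± 0.09 in control rats (SD, n = 4 each), a difference of 0.50 (SE 0.09, interval 0.28 to 0.72, limma adjusted p = 0.0254). The exact permutation p was 0.0286. The call was near the threshold and ended when any of 5 arrays was left out, with adjusted p = 0.0812 without restricted array 1, 0.0615 without restricted array 3, 0.0690 without control array 2, 0.0780 without control array 3 and 0.0749 without control array 4. The difference then stayed between 0.42 and 0.57.

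Cdkn1b at day 10 in liver read 9.70, 9.37, 9.73, 9.66 and 9.95 in restricted rats, against 8.89, 9.41, 9.17, 9.28 and 9.11 in control rats. The groups overlapped by restricted array 2 and control array 2 alone. The means were 9.68 ± 0.20 in restricted and 9.17 ± 0.19 in control rats (SD, n = 5 each), a difference of 0.51 (SE 0.12, interval 0.24 to 0.78, limma adjusted p = 0.0235). With scan day as a block it was 0.48 (limma adjusted p = 0.0389), and it was 0.38 on scan day 1 alone (limma adjusted p = 0.658) and 0.58 on scan day 2 alone (limma adjusted p = 0.0845). The call ended without restricted array 3 (adjusted p = 0.0589), restricted array 4 (0.0515), control array 3 (0.0535) or control array 5 (0.0600), with differences from 0.44 to 0.58 over all arrays left out in turn.

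In adipose tissue Cdkn1b read 11.61, 11.56, 11.34 and 11.55 in restricted rats, against 11.44, 11.44, 11.57 and 11.46 in control rats. The groups overlapped, and the difference was 0.04 (SE 0.06, interval -0.12 to 0.19, limma adjusted p = 0.729). Set against liver at day 4 the adipose difference was lower by a log2 value of -0.46 (interval -0.72 to -0.21), which just missed the threshold (limma adjusted p = 0.0518). That contrast was called with dim probe sets left out (mean under 5, adjusted p = 0.0382), without liver day 4 control array 1 (-0.51, adjusted p = 0.0418) and without liver day 4 restricted array 4 (-0.53, adjusted p = 0.0154). The second probe set of Cdkn1b, 1369192_at, was below the array median on all 26 arrays and carries no measure of the transcript.

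**Figure D3:**
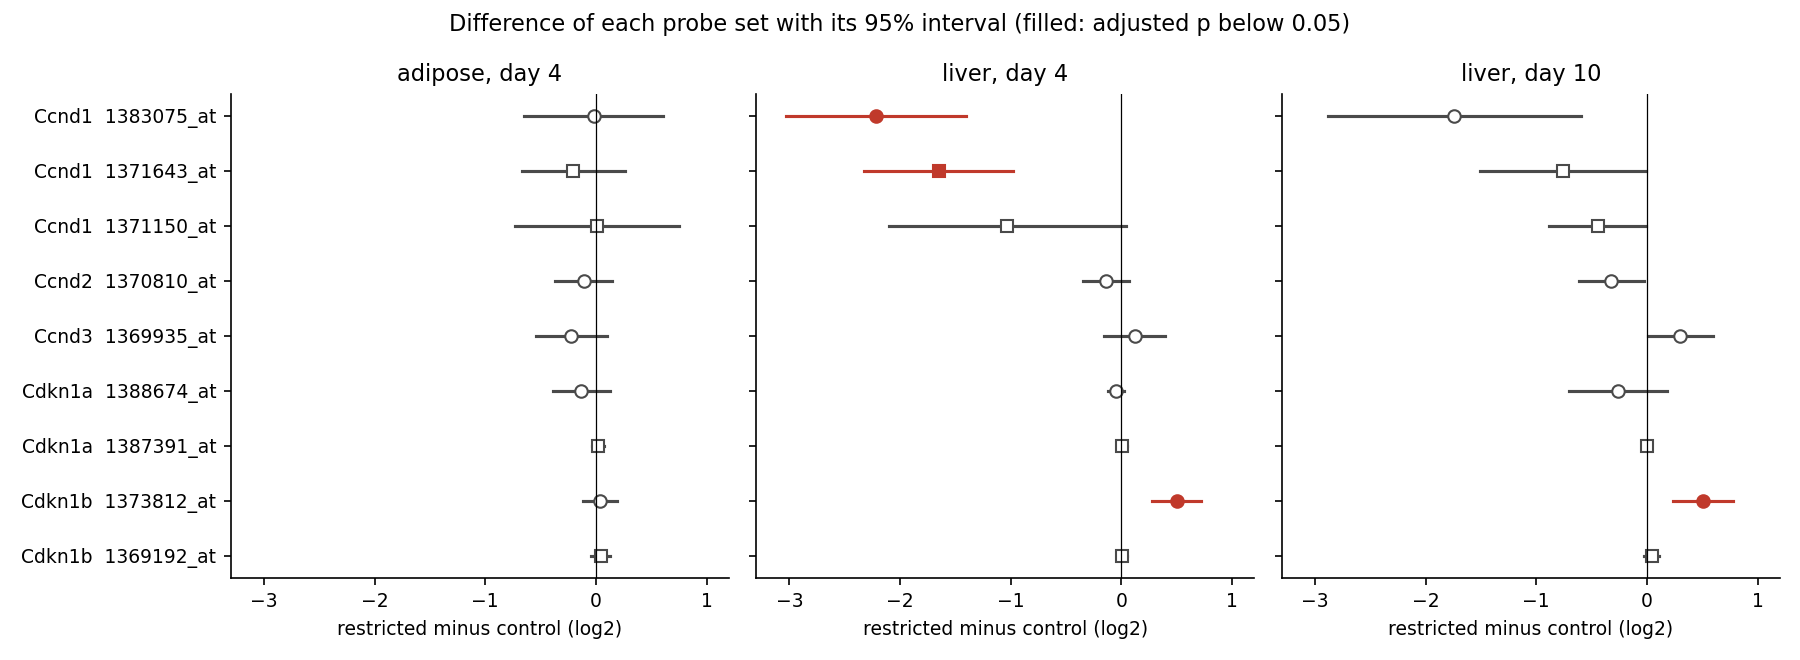
Restricted minus control difference (log2) of each of the 9 probe sets with its 95% confidence interval, in adipose tissue and in liver at days 4 and 10. Circles are the leading probe set of a gene, squares the others, and filled red symbols have an adjusted p below 0.05. Filled symbols are Ccnd1 at -2.22 and -1.65 and Cdkn1b at 0.50 in liver at day 4, and Cdkn1b at 0.51 in liver at day 10.

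Because Cdkn1b was the member called in liver on both days, the 250 bases before its start are shown, from RefSeq's promoter table of the build GRCr8. The stretch is chr4:169491254-169491503 on the plus strand, written 5′ to 3′, and capitals mark matches to 3 short motifs searched on both strands. The forkhead core was searched as TAAACA. The CCAAT box was searched by the letters of its name. The GC box was searched as GGGCGG.
Cdkn1b: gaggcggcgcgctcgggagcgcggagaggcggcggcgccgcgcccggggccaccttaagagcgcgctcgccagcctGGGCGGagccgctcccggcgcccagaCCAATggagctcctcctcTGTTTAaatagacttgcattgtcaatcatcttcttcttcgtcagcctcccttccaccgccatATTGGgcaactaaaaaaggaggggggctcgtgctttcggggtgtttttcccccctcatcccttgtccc
A GC box stands at -174 to -169 and a CCAAT box at -148 to -144 on the gene's strand, and the forkhead core at -130 to -125 and a second CCAAT box at -68 to -64 are read on the opposite strand, counted from the start of the gene. None of these matches overlaps another. Of 33469 RefSeq promoter stretches of the same length, 12.1% hold the forkhead core, 34% the CCAAT box and 30.5% the GC box. The motifs were chosen with this sequence in view, and a match is a string of letters, not a measured binding site. The Cdkn1a stretch held no match to these 3 motifs, and the Ccnd3 stretch held a CCAAT box and GC boxes and no forkhead core.

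The long and the short regimen were compared in liver by the difference of their effects. Limma called 0 of the 5 members, 0 at an unadjusted p below 0.05, where 0.978% of genes were called. The Ccnd1 effect at day 10 minus that at day 4 was 0.48 (interval -0.95 to 1.91), and the Cdkn1b effects differed by 0.01 (interval -0.34 to 0.36). For Ccnd3 the difference was 0.18 (interval -0.21 to 0.58).

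**Figure D4:**
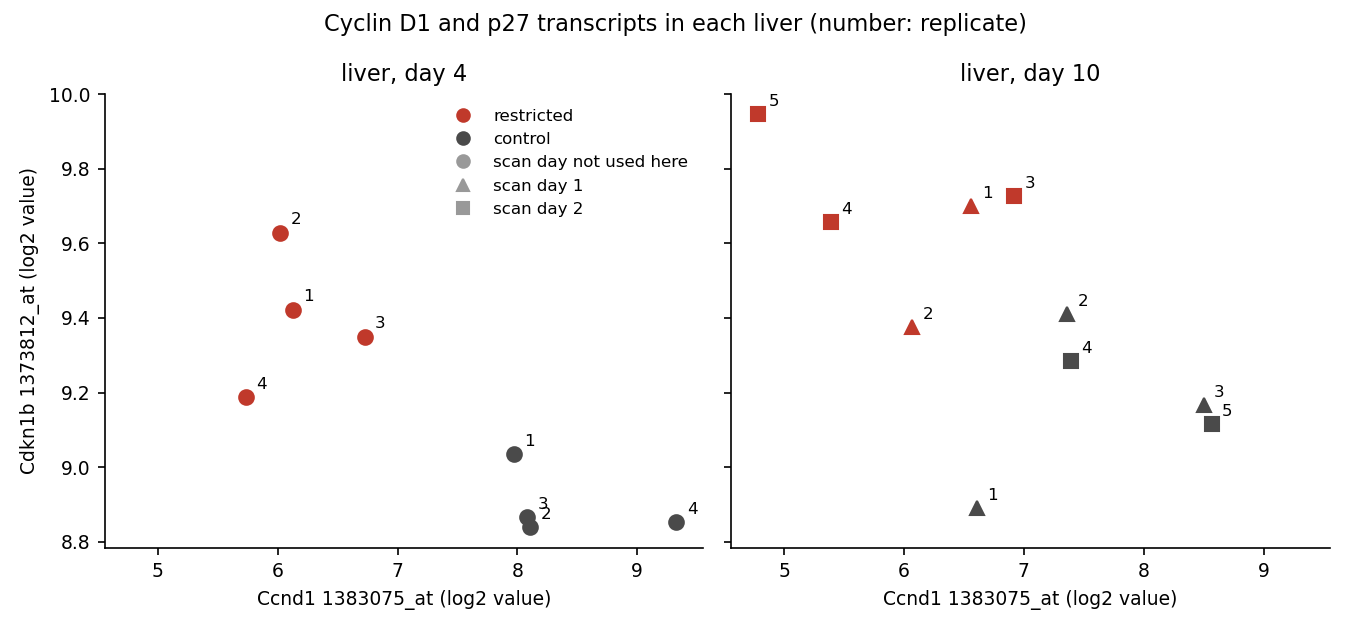
Log2 values of Ccnd1 (1383075_at, horizontal) and Cdkn1b (1373812_at, vertical) in each liver at day 4 (left) and day 10 (right), restricted in red and control in grey, with replicate numbers. Marker shape gives the scan day at day 10. Restricted livers lie at low Ccnd1 and high Cdkn1b values at day 4, and at day 10 control array 1 has a low value of both genes (6.61 and 8.89).

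Set against each other liver by liver, the 4 restricted livers of day 4 combined low Ccnd1 with high Cdkn1b, and no control liver did. This follows from the groups not overlapping for either gene and shows no link between the genes. Within the restricted group the order was not shared: array 4 had the lowest Ccnd1 (5.73) and also the lowest Cdkn1b (9.19). At day 10 restricted array 5 had the lowest Ccnd1 (4.78) and the highest Cdkn1b (9.95) of its set. Control array 1 of day 10 had the lowest value of its group for both genes, 6.61 for Ccnd1 and 8.89 for Cdkn1b.

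Markers of other cell types moved in liver beside the members. For scale, 4.53% of all genes were called higher and 3.97% lower at day 4, and 8.67% and 8.15% at day 10. Of 10 macrophage and Kupffer cell markers 5 fell and 0 rose at day 4, and their mean level was 7.87 to 8.30 in restricted and 8.64 to 8.81 in control rats. At day 10, 9 of the 10 fell and 0 rose, with mean levels of 8.12 to 8.64 in restricted and 9.21 to 9.57 in control rats. None of the 10 lay below the array median on all liver arrays. Of 9 stellate cell and fibroblast markers 1 fell at day 4, and 2 rose and 2 fell at day 10. Limma called 0 of 7 endothelial and 0 of 7 lymphocyte markers on either day, with 0 of each at an unadjusted p below 0.05 at day 4, and 1 endothelial and 2 lymphocyte markers at day 10. Of the lymphocyte markers 6 lay below the array median on every array at day 4 and 5 at day 10, as did 1 of the endothelial markers on each day, so these could show little. Both red blood cell markers measured, the haemoglobin gene Hbb and the haem synthesis gene Alas2, fell at day 10, with mean levels of 6.54 to 8.16 in restricted and 9.37 to 11.2 in control rats. Of 7 hepatocyte markers 1 fell on each day, and their mean level at day 4 was 14.7 to 15.0 in restricted and 14.9 to 15.0 in control rats. The part of these shifts in the Ccnd1 and Cdkn1b differences was not tested.

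Direct partners of the D-type cyclins were taken from the G1 cyclin-CDK and Rb-E2F list. Of its 22 measured genes 1 rose and 0 fell in liver on each day, where 8.5% of all genes were called at day 4 and 16.8% at day 10, and 7 of the 22 lay below the array median on every array of each liver set. In adipose tissue limma called 0, with 1 at an unadjusted p below 0.05. E2f6, a repressor of the E2F family, differed there by -0.53 (limma adjusted p = 0.238) and was called with all sets in 1 fit (adjusted p = 0.00310) and with array weights (0.00608). In adipose tissue these settings called 1389 and 1187 of all probe sets, against 17 without them. The same holds for the adipose genes called under these settings below. The gene that rose was Rbl2, which encodes p130, the retinoblastoma relative of quiescent cells. It averaged 9.27 ± 0.12 in restricted and 8.61 ± 0.10 in control livers at day 4 (SD, n = 4 each), a difference of 0.66 (SE 0.07, limma adjusted p = 0.00326) that was called without each array in turn. At day 10 it differed by 0.72 (SE 0.17, limma adjusted p = 0.0225), and that call ended without restricted array 3 (adjusted p = 0.0503), restricted array 4 (0.0532), control array 1 (0.0551) or control array 5 (0.0536). On the separate scan days the Rbl2 difference was 0.38 and 1.02, called on neither (adjusted p = 0.361 and 0.124). The list median was 0.01 in each of the 3 comparisons, as was that of all genes in adipose tissue and in liver at day 4.

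Other CDK inhibitors and the genes that turn inhibitors over numbered 16, of which 0 rose and 1 fell in liver at day 4. At day 10 and in adipose tissue 0 were called, with 3 at an unadjusted p below 0.05 in each. Of all genes 8.5% were called in liver at day 4, 16.8% at day 10 and 0.106% in adipose tissue. The counts of this list and of the other cyclins are to be read beside these shares. The share of all genes at an unadjusted p below 0.05 is not given here. The gene that fell was Cks2, a small subunit that binds cyclin-dependent kinases, with 5.13 ± 0.16 in restricted and 5.91 ± 0.14 in control livers (SD, n = 4 each), a difference of -0.78 (SE 0.10, limma adjusted p = 0.00494). At day 10 its difference was -0.85 (SE 0.31, limma adjusted p = 0.148), called with dim probe sets left out (adjusted p = 0.0449) and with all sets in 1 fit (0.00962). The day 4 call of Cks2 ended with all sets in 1 fit (adjusted p = 0.0624). In adipose tissue the largest differences of this list were Cks1b, a partner of the ubiquitin ligase that degrades p27, at -0.77 (limma adjusted p = 0.212) and the INK4 inhibitor Cdkn2c at -0.59 (limma adjusted p = 0.330). Both were called with all sets in 1 fit (adjusted p = 0.00157 for Cks1b and 0.000505 for Cdkn2c), and Cks1b with array weights (0.0152). Of 13 other cyclins, Ccni rose by 0.17 in liver at day 4 (SE 0.02, limma adjusted p = 0.00817, 0.129 with a trended and robust prior and 0.301 with all sets in 1 fit) and no other was called in any set, with 3 at an unadjusted p below 0.05 in adipose tissue and 3 in liver at day 10. Ccng2, a FOXO-responsive cyclin, had a difference of -0.77 in liver at day 10 (limma adjusted p = 0.123) and was called without control array 1 (adjusted p = 0.00971), with dim probe sets left out (0.0367) and with all sets in 1 fit (0.0225). In adipose tissue Ccnc, the cyclin of the Mediator kinase module, was called with all sets in 1 fit (-0.38, adjusted p = 0.0150) and with array weights (-0.30, 0.0237).

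None of the 28 measured genes of DNA replication and mitosis was called in the limma fit of any of the 3 sets. Of all genes 0.106% were called in adipose tissue, 8.5% in day 4 livers and 16.8% in day 10 livers. At an unadjusted p below 0.05 there was 1 in adipose tissue and 1 in day 4 livers, and 0 in day 10 livers. Most of these transcripts were close to background, since 19, 19 and 18 of the 28 lay below the array median on every array of the 3 sets. Among those above it, the thymidine kinase Tk1 averaged 5.27 ± 0.17 in restricted and 5.42 ± 0.13 in control livers at day 4 (SD, n = 4 each), and the replication licensing factor Mcm7 averaged 7.32 ± 0.13 in restricted and 7.19 ± 0.09 in control livers at day 10 (SD, n = 5 each). Neither was called (limma adjusted p = 0.646 and 0.356), but Tk1 was called as the mean of its probe sets (-0.13, adjusted p = 0.0337) and Mcm7 with array weights (0.26, against 0.13 without them, adjusted p = 0.0467). In adipose tissue the mitotic checkpoint kinase Bub1, below the array median on every array, was called with all sets in 1 fit (adjusted p = 0.00181).

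**Figure D5:**
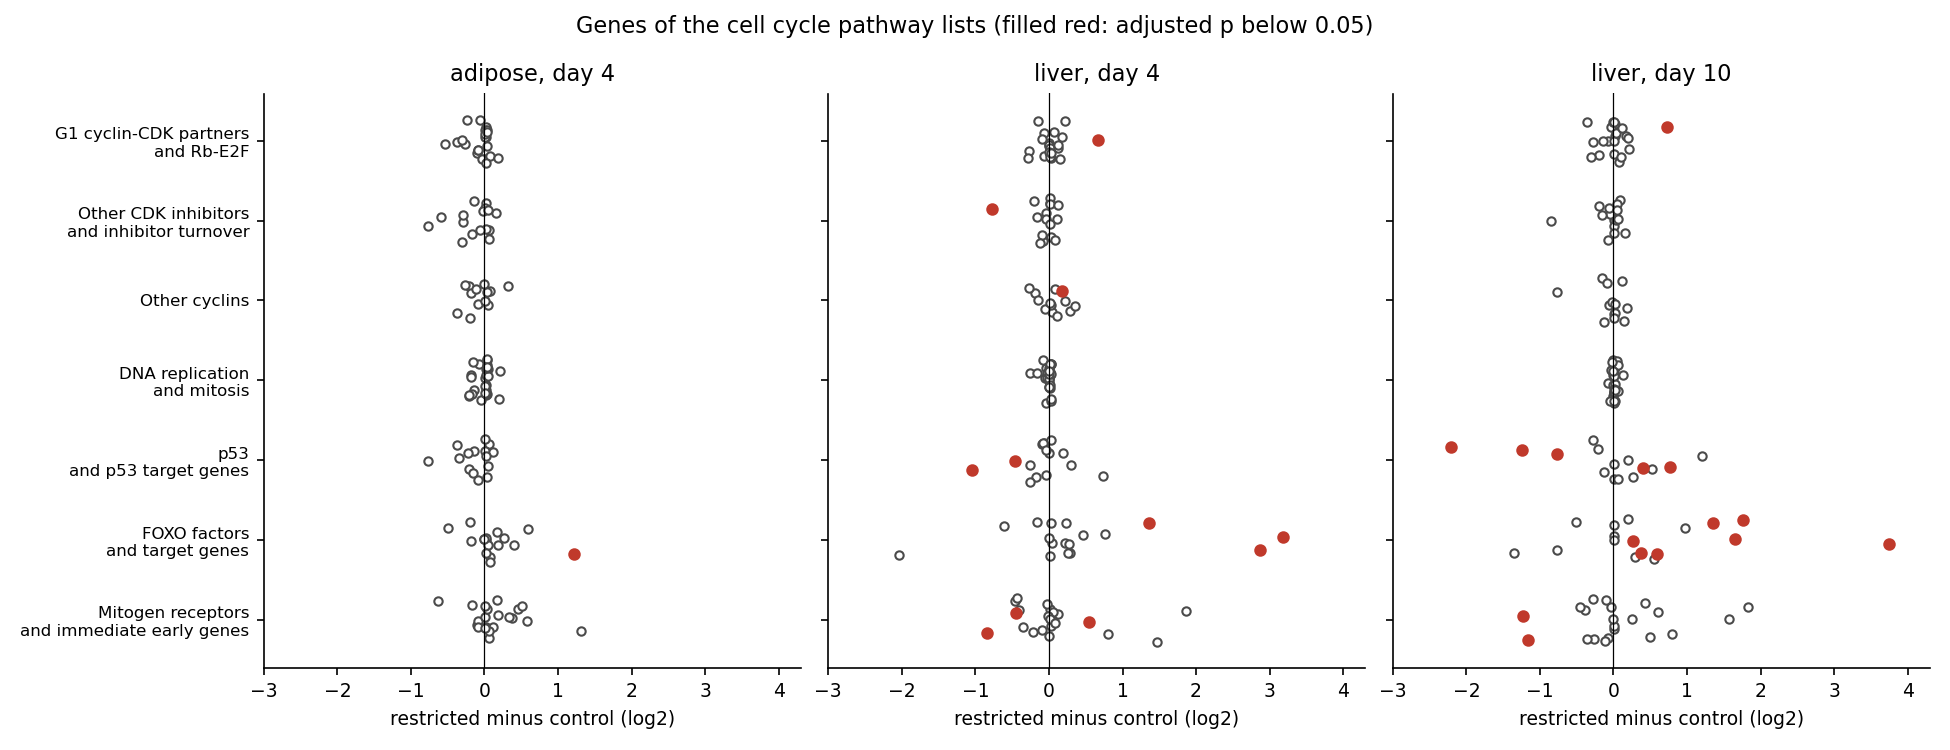
Restricted minus control difference (log2) of each measured gene of 7 lists around the cell cycle, in adipose tissue and in liver at days 4 and 10, with 1 point per gene and vertical position within a list without meaning. Filled red points have an adjusted p below 0.05. Replication and mitosis genes have no filled point in any panel, and the filled points of the FOXO list all lie right of 0.

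Genes around the insulin signal, which is known to hold FOXO factors in check, were next. Of 17 FOXO factors and FOXO target genes, 1 rose in adipose tissue, 3 in day 4 livers and 7 in day 10 livers, and 0 fell in each, where 4.53% of all genes were called higher in liver at day 4 and 8.67% at day 10. The list medians were 0.05, 0.23 and 0.30, against 0.01, 0.01 and 0.00 for all genes. Some list genes lay lower in liver without being called. Among them were Bcl6 at day 4 (-2.04, limma adjusted p = 0.266) and Ccng2 at day 10 (-0.77, limma adjusted p = 0.123). Igfbp1, a secreted binding protein of insulin-like growth factors, averaged 9.58 ± 0.50 in restricted and 6.71 ± 0.95 in control livers at day 4 (difference 2.87, limma adjusted p = 0.0169), and 12.38 ± 0.58 in restricted and 8.64 ± 0.89 in control livers at day 10 (difference 3.75, limma adjusted p = 0.000761). Irs2, which links the insulin receptor to its downstream kinases, rose by 3.18 in liver at day 4 (limma adjusted p = 0.0204) and by 1.76 at day 10 (0.0155), and by 1.22 in adipose tissue (0.0258). Bnip3, a mitophagy receptor, rose by 1.36 at day 4 (limma adjusted p = 0.00437) and by 1.35 at day 10 (0.00439), and Klf15, a factor of amino acid catabolism, rose by 1.65 at day 10 (0.00176).

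Some of these FOXO list calls ended when 1 array was left out. The Irs2 call in liver at day 4 ended without any one of restricted arrays 1, 2 and 3 and control arrays 2, 3 and 4, with adjusted p from 0.0568 to 0.0712. The Irs2 call in adipose tissue ended without any one of restricted arrays 2, 3 and 4 and control arrays 1, 2 and 3, with adjusted p from 0.0558 to 0.132. The Igfbp1 call at day 4 ended without control array 4 (2.71, adjusted p = 0.0525), and the day 10 calls of Igfbp1, Irs2, Klf15 and Bnip3 held without each array in turn. With scan day as a block these 4 remained called (adjusted p from 0.00219 to 0.0306). On scan day 1 alone none was called, with differences of 2.90 for Igfbp1 (adjusted p = 0.132), 1.71 for Irs2 (0.518), 1.05 for Klf15 (0.0576) and 0.93 for Bnip3 (0.0858). On scan day 2 alone Igfbp1 (4.60, adjusted p = 0.0282) and Klf15 (2.23, 0.0282) were called, and Irs2 (1.78, 0.0904) and Bnip3 (1.67, 0.0926) were not. The Irs2 call in adipose tissue also ended with arrays centred on their median (adjusted p = 0.0674) and with all sets in 1 fit (0.129).

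Of 15 genes of the p53 list, 2 fell in liver at day 4, and 2 rose and 3 fell at day 10, where 3.97% of all genes were called lower at day 4, and 8.67% higher and 8.15% lower at day 10. Phlda3, a p53-induced inhibitor of Akt, averaged 4.53 ± 0.58 in restricted and 6.75 ± 0.62 in control livers at day 10 (difference -2.22, limma adjusted p = 0.00376). Bbc3, which encodes the cell death protein PUMA, averaged 6.63 ± 0.08 in restricted and 7.87 ± 0.24 in control livers (difference -1.24, limma adjusted p = 0.000167), and Ei24 fell by 0.77 (0.00104). Sesn2, a stress-induced sestrin, rose by 0.77 at day 10 (limma adjusted p = 0.0193), a call that ended without restricted array 3 (adjusted p = 0.0505), control array 4 (0.0502) or control array 5 (0.0520), or with all sets in 1 fit (0.0559). Sesn2 differed by 0.32 on scan day 1 alone (adjusted p = 0.317) and by 1.18 on scan day 2 alone (0.0506). Phlda3 differed by -1.66 (adjusted p = 0.294) and -2.67 (0.0586) on these days, Ei24 by -0.58 (0.0655) and -0.95 (0.0521), and Bbc3 by -1.35 (0.0519) and -1.13 (0.0392). At day 4 Phlda3 was lower in restricted livers (limma adjusted p = 0.0373), with means of 2.88 in restricted and 3.93 in control rats. The restricted mean lay under the array medians, so no size of change is given. Perp, a membrane protein of the p53 response, differed by -0.46 at day 4 (limma adjusted p = 0.0351). The day 4 call of Phlda3 ended without any array but control array 2 (adjusted p from 0.0602 to 0.103), and that of Perp without any array but restricted arrays 2 and 4 (0.0610 to 0.0947). In adipose tissue limma called 0 of the 15, with 3 at an unadjusted p below 0.05.

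Among 21 mitogen receptors and immediate early genes, 1 rose and 2 fell in liver at day 4, and 0 rose and 2 fell at day 10, where 8.5% and 16.8% of all genes were called. In adipose tissue limma called 0, with 2 at an unadjusted p below 0.05. Ghr (-0.63, adjusted p = 0.0166) and the immediate early gene Fosb (1.31, 0.0289) were called there with all sets in 1 fit, and with array weights (-0.52, 0.0194, and 2.32, 0.0121). Ghr, the growth hormone receptor, averaged 11.66 ± 0.39 in restricted and 12.82 ± 0.09 in control livers at day 10 (difference -1.16, limma adjusted p = 0.00217), and Stat5b, the factor that carries the growth hormone signal, averaged 5.89 ± 0.21 in restricted and 7.12 ± 0.17 in control livers (difference -1.24, limma adjusted p = 0.000218). On scan days 1 and 2 alone Ghr differed by -0.86 (adjusted p = 0.0560) and -1.36 (0.0674), and Stat5b by -1.20 on each (0.0151 and 0.0588). At day 4 Ghr differed by -0.45 (limma adjusted p = 0.0164), Stat5b by -0.84 (0.0456) and Erbb3, a neuregulin receptor, by 0.55 (0.0342). The day 4 call of Ghr ended without control array 4 (adjusted p = 0.0525). Those of Stat5b and Erbb3 ended without any array but restricted array 4, with adjusted p from 0.0755 to 0.124 for Stat5b and from 0.0558 to 0.0936 for Erbb3.

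The genes whose values followed a member most closely over the 26 arrays, after each array was set against the mean of its set, were sought among 7647 genes with a mean of at least 5. For Ccnd1 these were the chloride channel protein Clic4 (Pearson r = 0.86), the growth factor Igf1 (r = 0.86) and Paqr9 (r = 0.85). Paqr9 differed by -2.25 in liver at day 4 and -2.74 at day 10, and Igf1 by -0.36 and -0.24. For Cdkn1b they were LOC102549726 (r = 0.91), the glycine acyltransferase Glyat (r = 0.90) and Adgrf5 (r = 0.90), which differed by 1.63, 0.57 and 0.59 in liver at day 4. For the other members the highest values were 0.78 for Hsp90b1 with Ccnd2, 0.80 for Tmem259 with Ccnd3 and 0.65 for Oma1 with Cdkn1a. Values near background enter those of Ccnd2 in liver and of Cdkn1a in liver at day 4. In adipose tissue alone the correlation with Ccnd1 was 0.39 for Clic4, 0.05 for Igf1 and 0.76 for Paqr9, over 8 arrays, and in liver it lay between 0.86 and 0.93 for the 3 genes on both days. These correlations describe shared arrays and include the difference between the groups.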

How the data were processed

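Gene expression was measured on Affymetrix rat arrays, 1 per animal, in 6 groups taken from the sample titles. Per the submitters' processing notes, R 2.4.1, affy 1.12.2, RMA and GCRMA 2.6.0 were used, and per the labels each of the 3 sets was pre-processed apart. Whether RMA or GCRMA gave the final values is not given in the sources used here. The deposited values are log2 expression values, taken without further normalization. Control probe sets (57 of 31099) were left out. The number of arrays, 4 or 5 a group, limits the precision.

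limma 3.58.1 (R 4.3.3) gave a moderated test within each set (two-sided, Benjamini-Hochberg over 31042 probe sets, threshold 0.05). Effects were compared by a contrast in a joint fit of the sets concerned. The exact permutation tests are two-sided. The procedure was tested on simulated data. Alternatives were a filter on a mean of at least 5, quantile normalization, median centring, a trended and robust prior, all 3 sets in 1 fit, the mean of a gene's probe sets, array weights, a replicate block, scan day, and each array left out. Gene lists were described by counts and medians, with no list test.

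The members and lists were chosen with earlier results of these data known. Named genes are all 5 members, from each list and comparison the 4 largest called differences (or the 2 largest, had none passed), and the 3 genes most like each member in Pearson r. Gene symbols come from the platform annotation. The adjusted p-values treat each array as a separate animal, per the series description. In the adipose minus liver contrast at day 4 any sharing of rats between the tissues was not modelled, since no label links the arrays. Plots were made with matplotlib 3.10.9 (Python 3.11.15).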

Additional observations from a re-analysis of the deposited data

Results flagged for a closer look

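In 8 of 54 groups of arrays, formed by probe set, tissue, day and diet, 1 array stood far from the others, where chance gives about 1 in 20 groups. For Ccnd1 this was control array 4 in liver at day 4 (9.33 on 1383075_at, the other control arrays 7.97 to 8.11) and restricted array 4 in liver at day 10 (4.75 on 1371150_at). For Cdkn1b it was control array 1 in liver at day 4 (9.04 on 1373812_at) and restricted array 4 in liver at day 10 on the background probe set 1369192_at (2.44). For Cdkn1a in adipose tissue it was restricted array 4 (5.75) and control array 1 (6.38) on 1388674_at. Adipose control array 1 also had the highest hepatocyte marker mean of its set (6.06), with Ttr at 8.03, Serpina1 at 6.43 and Ahsg at 5.66; the part of this in the Cdkn1a value was not tested. On the Cdkn1a background probe set 1387391_at it was adipose control array 4 (1.71) and liver day 4 control array 3 (2.12).

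The restricted minus control difference of Ccnd1 differed between adipose tissue and liver at day 4 by a test of the difference itself, by 2.20 on 1383075_at (limma adjusted p = 0.0179) and by 1.45 on 1371643_at (0.0474), with every restricted liver below every control liver and overlapping groups in adipose tissue.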

How the results depend on the processing

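Of the 5 members in adipose tissue, 0 were called under every alternative run. Signs turned for uncalled adipose values: with quantile normalization Ccnd1 was 0.087 and Ccnd2 0.017, and with arrays left out in turn Ccnd1 ran from -0.28 to 0.11. In liver at day 4, only Ccnd1 was called with arrays centred on their median, and the call of Cdkn1b ended (0.49, limma adjusted p = 0.0622). With arrays left out, 1 to 2 members were called there (Cdkn1b 0.42 to 0.57, Ccnd1 -2.41 to -1.90). In liver at day 10, 2 members were called with the filter (Ccnd1 -1.74, adjusted p = 0.0158), with all sets in 1 fit (-1.74, 0.00404) and with array weights (-1.60, 0.0208), 0 on either scan day alone (Cdkn1b 0.38 and 0.58), and 0 to 2 with arrays left out (Ccnd1 -2.01 to -1.45, Cdkn1b 0.44 to 0.58). The exact permutation p, not adjusted, was 0.0159 for Ccnd1 (-1.74) and 0.00794 for Ccnd2 (-0.32, between values near background) at day 10. For adipose minus liver effects at day 4, 2 members were called with the filter (Cdkn1b -0.46) and 1 to 2 with arrays left out (Cdkn1b -0.53 to -0.38, Ccnd2 -0.054 to 0.11, Cdkn1a -0.12 to 0.0049); the Ccnd2 and Cdkn1a liver values lay at background, so their sign turns measure nothing. For liver day 10 minus day 4, Cdkn1b ran from -0.062 to 0.086 with arrays left out.

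Replicate numbers gave no steady sign of pairing, which groups of 4 or 5 arrays cannot exclude. Same-numbered arrays had correlations of deviations from -0.30 to 0.25 in adipose tissue. These ran from -0.11 to 0.20 in liver at day 4 and from -0.09 to 0.11 at day 10. Some arrays correlated best with their own number and others did not. With the replicate block, 0 members were called in liver at day 4 (Ccnd1 -2.22, adjusted p = 0.0912; Cdkn1b 0.50, 0.0818), Ccnd3 in place of Cdkn1b at day 10 (0.30, 0.00365; 0.51, 0.105), and 0 in the adipose minus liver contrast (Ccnd1 2.20, 0.0846). For the contrasts between effects, unlike the sets, the block was added after seeing the data.

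Over all probe sets, 17 were called in adipose tissue, against 29 with the filter, 9 with quantile normalization, 3 with centring, 1389 in 1 fit, 9 with probe set means, 1187 with array weights, 0 with the block and 0 to 15 with arrays left out. In liver at day 4 the 1732 calls became 987 with the block, 2723 with weights, 1091 without restricted array 1 and 1146 without control array 4. In liver at day 10 the 3471 became 567 and 1240 on the scan days alone. Of 23 named list gene calls, 8 were lost with the block, 6 in 1 fit, 4 with centring, 3 with quantile normalization and 1 with the trended prior. Of the named list values not called, 9 gained a call in 1 fit, 6 with array weights, 2 with the filter and 1 with probe set means. None reversed under these settings. On scan days 1 and 2 alone, 10 and 8 of 11 were lost. An array weight fit stopped before convergence. The cause of these changes was not tested. Values near the array median, as for Ccnd2 in liver and Cdkn1a in liver at day 4, limit what can be measured.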
